A study of Mus musculus with 6 samples.

Results

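The contractile genes of myofibroblasts described here are Acta2, Actg2, Tagln, Cnn1, Cnn2, Myl9, Myh11, Tpm1, Tpm2 and Lmod1. They were taken by gene symbol and are 10 of the 55487 genes in the deposited tables. All 10 passed the filter on low counts in edgeR, as did 16962 genes in all. The cells were wild-type mouse embryonic fibroblasts (MEFs), which are primary connective-tissue cells cultured from embryos and not an established line. Cultures were compared at 2 passages, P1 (labelled non-senescent) and P6 (labelled senescent) (a passage is 1 round of replating). At each passage the cells received vehicle, α-amyrin at 20 µM or β-amyrin at 20 µM for 3 days, and every one of the 6 conditions has 1 poly(A) RNA library. The labels name neither the vehicle nor the embryos, and do not state that P6 cells came from the same isolate as P1 cells, so passage and isolate cannot be told apart. They also do not say that libraries came from separate cultures, so every p-value here measures only the spread among these libraries, which may be technical.

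A myofibroblast is a fibroblast that has built stress fibres, bundles of actin filaments pulled by myosin, and that contracts and stiffens the matrix around it during wound closure and fibrosis. The genes for these fibres are known targets of serum response factor (SRF), which binds a short promoter element called the CArG box together with myocardin-related cofactors that enter the nucleus as actin polymerises, and many of them also respond to TGF-β. MEFs on stiff plastic with serum are known to switch on this programme in culture. α-Amyrin and β-amyrin are plant triterpene alcohols with 5 fused rings that are isomers of each other. As known chemistry, they differ in the placement of a single methyl group on the last ring, the ursane skeleton against the oleanane skeleton.

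Acta2 and Actg2 encode near-identical proteins, and their coding ends are shown because the ratio of their levels is among the results. The coding sequences of Acta2 and Actg2 matched at 955 of 1131 aligned bases (84.4%), and the longest identical run was 29 bases. Their last 90 coding bases, with the 16 bases that differ in capitals, read as follows on mm10, from the minus strand at chr19:34241670-34241759 for Acta2 and at chr6:83512988-83513077 for Actg2.
Acta2: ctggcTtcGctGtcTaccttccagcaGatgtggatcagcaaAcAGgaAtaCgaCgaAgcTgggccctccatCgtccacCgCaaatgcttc
Actg2: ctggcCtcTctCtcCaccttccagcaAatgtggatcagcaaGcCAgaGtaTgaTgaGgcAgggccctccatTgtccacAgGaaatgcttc
The differing bases are spread along the whole stretch. Against the cytoplasmic actins the longest identical run of Acta2 was 47 bases with Actb and 56 bases with Actg1, and Myh11 shared a run of 65 bases with Myh9. Without the read length, how reads within such runs were assigned is not known.

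Promoter matches to the CArG box are shown because most of the 10 genes are known SRF targets and moved together in part. RefSeq promoters (GRCm38.p6, the 250 bases before the RefSeq start) were at hand for 7 of the 10 genes, and Actg2, Tagln and Myh11 had no entry. The reverse complement of the CArG box has the same pattern, so a match covers both strands. The RefSeq starts lie 6 to 217 bases inside the gene spans of the deposited tables (217 for Acta2, 44 for Myl9), and positions here are counted from the RefSeq start. Matches are in capitals within 30 bases of context, written 5′ to 3′ on the strand of the gene.
Acta2, 84 to 75 bases before the RefSeq start, chr19:34255438-34255467, minus strand, 1 base off: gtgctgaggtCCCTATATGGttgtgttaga
Acta2, 34 to 25 bases before the RefSeq start, chr19:34255388-34255417, minus strand, 1 base off: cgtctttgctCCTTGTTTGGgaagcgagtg
Cnn2, 56 to 47 bases before the RefSeq start, chr10:79988534-79988563, plus strand, exact: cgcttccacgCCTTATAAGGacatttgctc
Myl9, 161 to 152 bases before the RefSeq start, chr2:156775293-156775322, plus strand, exact: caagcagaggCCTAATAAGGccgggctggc
Myl9, 99 to 90 bases before the RefSeq start, chr2:156775355-156775384, plus strand, 1 base off: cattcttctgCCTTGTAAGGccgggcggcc
Tpm1, 221 to 212 bases before the RefSeq start, chr9:67049415-67049444, minus strand, 1 base off: gctcgggtccCCATATATAGtcatatccac
Lmod1, 189 to 180 bases before the RefSeq start, chr1:135324614-135324643, plus strand, 1 base off: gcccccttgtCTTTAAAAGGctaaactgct
An exact match stood in 2 of the 7 promoters, against 1.47% of all 32851 promoter windows of that length. With at most 1 base off, 5 of the 7 held a match, against 18.6% of all windows, and Cnn1 and Tpm2 held none. Tpm1 and Lmod1 each had a further match 1 base off. Of the genes with exact matches, Cnn2 fell at P6 and Myl9 did not pass that test. A match here describes letters, not binding.

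Total counts ran from 18798418 in the P6 α-amyrin library to 28752332 in the P1 α-amyrin library, and single members had between 363 and 93031 reads per library. The 12 fibroblast markers had a summed level, carried by collagens and vimentin, of 25662 to 30072 CPM (TMM-scaled counts per library of equal size) at P1 and 22240 to 26729 CPM at P6. Of them 9 were lower and 1 higher at P6 in edgeR, against 29.1% and 30.0% of all genes tested. Their median log2 change was -0.50, with Pdgfra (-2.46) and Dcn (-1.88) among those that fell. Within each passage the α-amyrin library had the lowest fibroblast sum. With α-amyrin against vehicle, 4 of the 12 were lower and 6 higher at an unadjusted edgeR p below 0.05. The shares of all genes there were 5.55% and 6.21%. The 13 macrophage markers summed to 43.5 to 354 CPM at P1 and 3762 to 5379 CPM at P6, where all 13 were higher in edgeR, and within each passage the β-amyrin library had the lowest sum. Markers of smooth muscle and pericytes other than the members summed to 859 to 1009 CPM at P1 and 630 to 743 CPM at P6, with Higd1b at 0 in every library. Of the 13 tested 8 were lower and 2 higher at P6, where Des, the muscle filament desmin, fell from 51.5 to 62.9 CPM to 2.2 to 2.5 CPM and Notch3, a pericyte receptor, rose from 46.4 to 55.4 CPM to 94.9 to 104 CPM. Skeletal muscle markers (9.45 to 10.5 CPM at P1, 1.83 to 3.47 CPM at P6, Myf5 and Myf6 at 0), cardiac markers (33.4 to 47.1 and 2.79 to 3.89 CPM) and mesothelial markers (162 to 205 and 9.18 to 10.9 CPM) had lower sums at P6. The part of these cell mixtures in the results was not tested, and in bulk RNA fewer cells of a type and less RNA per cell cannot be told apart.

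The levels of the 10 genes can be ranked against each other only per length, in FPKM (fragments counted relative to gene length and sequencing depth). Acta2, smooth muscle α-actin and the usual marker of a myofibroblast, stood first in every library, at 1644, 1396 and 1662 FPKM at P1 and 1163, 891 and 1050.5 FPKM at P6 for vehicle, α-amyrin and β-amyrin in that order. It made up 45.7% of the summed FPKM of the 10 genes in P1 vehicle and 44.5% in P6 vehicle. Tagln, the actin-bundling protein transgelin, was second in all 6 libraries. Tpm1, Myl9 and Cnn2 followed, and their order was not stable: Tpm1 was above Myl9 in 3 of 6 libraries and Myl9 above Cnn2 in 3 of 6. Tpm2 was above Actg2 in 5 of 6. Cnn1, Lmod1 and Myh11 came last in that order in every library, Myh11 at 2.61 to 13.6 FPKM.

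**Figure D1:**
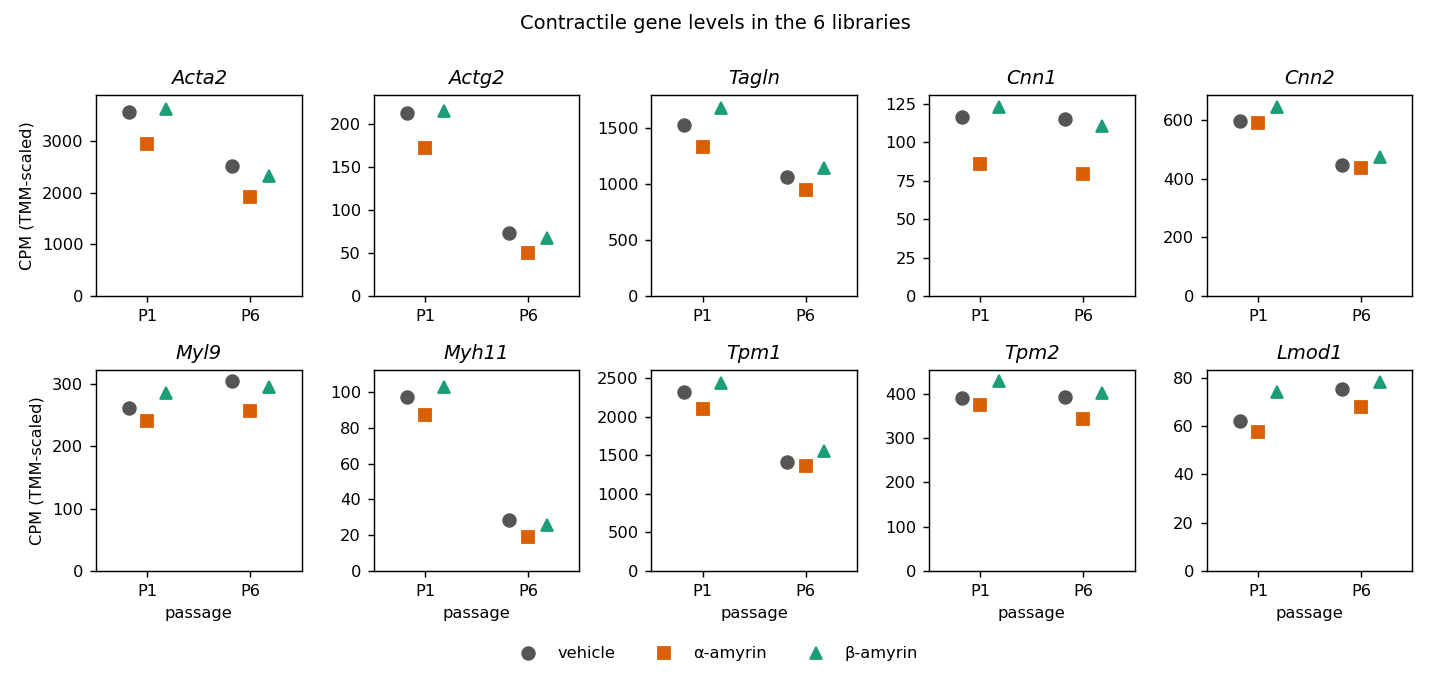
Level of each of the 10 contractile genes in CPM (TMM-scaled counts, each axis from 0) at passages P1 and P6, with 1 point per library, grey circles for vehicle, orange squares for α-amyrin and green triangles for β-amyrin. The 3 P6 points lie below all 3 P1 points for Acta2, Actg2, Tagln, Cnn2, Myh11 and Tpm1, and the orange square is the lowest of its passage in all 10 panels.

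Between passages the contractile genes split. Smooth muscle myosin (Myh11) and γ-actin (Actg2) fell most, at 3.93-fold and 3.16-fold, Acta2, Tagln, Cnn2 and Tpm1 fell by a smaller amount, 1.35-fold to 1.58-fold, and Lmod1 rose 1.15-fold. Cnn1, Myl9 and Tpm2 did not pass the test. In all, 6 of 10 fell and 1 rose at an edgeR adjusted p below 0.05, against 29.1% of all genes tested that were lower and 30.0% that were higher. The median log2 change of the 10 genes was -0.48, against 0.00 over all genes tested. The order of samples shows the same count: 6 of 10 members had all 3 P6 libraries below all 3 P1 libraries, against 32.2% of all genes, and 0 had all P6 libraries above, against 32.5%.

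Of the 2 actins, Acta2 (chr19:34241090-34255590, minus strand) had 3568, 2956 and 3636 CPM at P1 and 2530.1, 1926 and 2327 CPM at P6 for vehicle, α-amyrin and β-amyrin. All P6 values were below the lowest P1 value, and the log2 change was -0.59 ± 0.05 (SE, edgeR adjusted p = 6.55e-05). Actg2 (chr6:83512905-83536265, minus strand), the actin typical of gut and other visceral smooth muscle, had 213, 173 and 215 CPM at P1 and 73.3, 50.6 and 67.4 CPM at P6. The groups were far apart, with a log2 change of -1.66 ± 0.06 (edgeR adjusted p = 4.17e-06). Per length, Acta2 was 11.8 to 12.0 times Actg2 in the P1 libraries and 24.1 to 27.0 times in the P6 libraries.

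The 2 myosin chains did not move together. Myh11 (chr16:14194535-14291372, minus strand), the heavy chain of smooth muscle myosin, had 97.3, 87.5 and 103 CPM at P1 and 28.6, 19.3 and 25.9 CPM at P6. Each P6 library was far below all of P1, and the log2 change was -1.97 ± 0.08 (edgeR adjusted p = 7.02e-06). Myl9 (chr2:156775420-156781658, plus strand), the regulatory light chain whose phosphorylation switches myosin on, had 262, 241 and 285 CPM at P1 and 305, 256 and 295 CPM at P6. Those ranges overlapped, and the log2 difference was 0.12 ± 0.05 (edgeR adjusted p = 0.0715). Non-muscle myosin Myh9 did not pass either, at a log2 difference of -0.12 ± 0.05 (edgeR adjusted p = 0.0628), and per length Myh9 was 13.5 to 15.1 times Myh11 at P1 and 47.2 to 59.1 times at P6.

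Among proteins that line or cross-link actin filaments, Tagln (chr9:45929619-45936058, minus strand) had 1528, 1327 and 1675 CPM at P1 and 1063, 949.8 and 1140.1 CPM at P6, with no overlap. Its log2 change was -0.52 ± 0.04 (edgeR adjusted p = 6.28e-05). An annotated antisense gene, Gm48529, shares 1241 exonic bases with Tagln, 62.4% of its exonic length, and had a count of 98.4% to 99.1% of that of Tagln in every library. Reads of the pair cannot be told apart, since no source used here says whether counting used strand. In FPKM, where Gm48529 stood at 7.07% to 11.1% of Tagln, Tagln was 767, 681 and 827 at P1 and 532, 481 and 558 at P6, again with no overlap.

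The calponins, which bind actin and restrain myosin, did not move as a pair. Cnn1 (chr9:22099216-22109630, plus strand), the smooth muscle calponin, had 117, 85.7 and 123 CPM at P1 and 115, 79.2 and 111 CPM at P6, which overlap. Its log2 difference was -0.09 ± 0.05 (edgeR adjusted p = 0.142; 95% interval -0.21 to 0.02). Cnn2 (chr10:79988584-79996062, plus strand), the calponin of many non-muscle cells, had 596, 591 and 644 CPM at P1 and 447, 437 and 476 CPM at P6, with all P6 libraries lower and a log2 change of -0.43 ± 0.04 (edgeR adjusted p = 1.24e-04).

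The tropomyosins, rod proteins that coat the actin filament, also differed from each other. Tpm1 (chr9:67022590-67049406, minus strand) had 2318, 2103 and 2436 CPM at P1 and 1416, 1366 and 1563 CPM at P6, without overlap, and a log2 change of -0.66 ± 0.04 (edgeR adjusted p = 2.86e-05). Its count joins the muscle and non-muscle forms of 21 annotated transcripts, so a change of form cannot be seen here. Tpm2 (chr4:43514711-43523765, minus strand) had 389.6, 375 and 428 CPM at P1 and 393, 342 and 400.3 CPM at P6. Its ranges overlapped, with a log2 difference of -0.07 ± 0.05 (edgeR adjusted p = 0.215; 95% interval -0.18 to 0.04), and the FPKM ratio of Tpm1 to Tpm2 was 2.63 to 2.81 at P1 and 1.71 to 1.89 at P6.

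Lmod1 (chr1:135324807-135368065, plus strand), leiomodin 1, which seeds new actin filaments in smooth muscle, had 62.2, 57.7 and 74.2 CPM at P1 and 75.5, 67.8 and 78.5 CPM at P6. Each P6 library was above the P1 library of the same treatment, but the 2 ranges overlapped. The log2 change was 0.20 ± 0.06 (edgeR adjusted p = 0.0210). That call was lost when the P1 vehicle, P1 α-amyrin, P6 vehicle or P6 α-amyrin library was left out (edgeR adjusted p 0.0828 to 0.132), and the 6 falling genes kept their calls in all 12 alternatives.

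**Figure D2:**
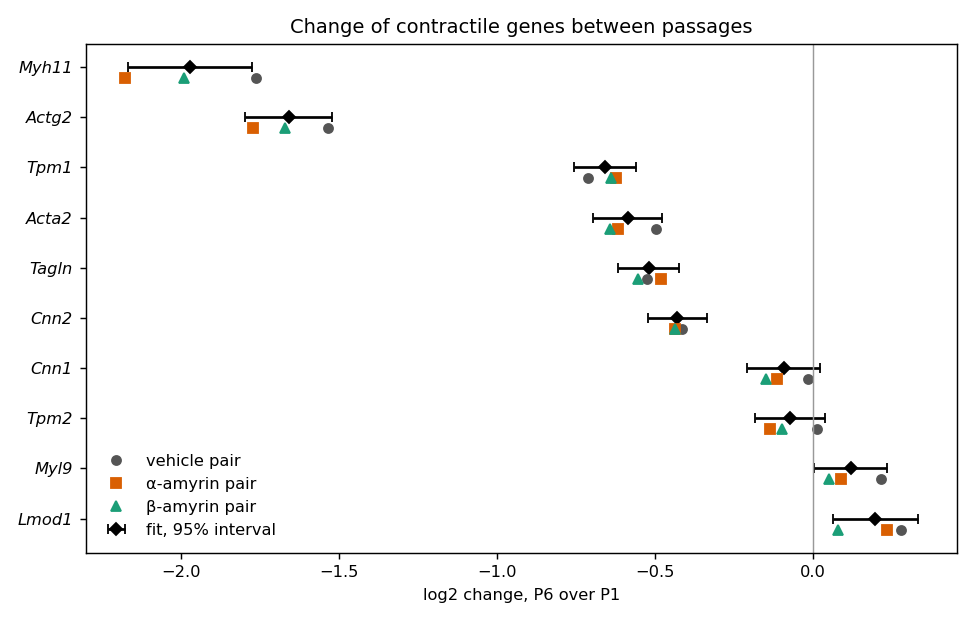
Log2 change from P1 to P6 for each contractile gene, as the fitted value over all 6 libraries with its 95% interval (black diamonds) and as the ratio of the single libraries for vehicle, α-amyrin and β-amyrin (grey circles, orange squares, green triangles). Myh11 and Actg2 stand apart on the left, 4 genes lie between -0.43 and -0.66, and Cnn1, Tpm2, Myl9 and Lmod1 lie around 0.

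In each single pair of libraries with the same treatment, Actg2 and Myh11 were the members at least 2-fold lower at P6. That size was reached by 3.84% of all genes in the vehicle pair, 3.97% in the α-amyrin pair and 3.87% in the β-amyrin pair. The P6 to P1 ratio of Actg2 was 0.345 in the vehicle pair, 0.293 in the α-amyrin pair and 0.314 in the β-amyrin pair. For Myh11 it was 0.294, 0.221 and 0.252. No other member reached 2-fold in any of the 3 pairs, and these ratios have no replicate check.

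In α-amyrin libraries every contractile gene was at its lowest level of the passage, at P1 (as were 34.2% of all genes) and again at P6 (30.2%). All 10 were thus below vehicle at both, where 50.7% of all genes were at P1 and 46.6% at P6. The fitted differences from vehicle were small: 1.41-fold lower for Cnn1, 1.33-fold for Actg2, 1.26-fold for Acta2 and Myh11, and 1.14-fold for Tagln and Myl9. In edgeR 0 of 10 passed at an adjusted p below 0.05, a call made for 0.0177% of all genes on the lower side and 0.0118% on the higher. At an unadjusted p below 0.05, 6 of 10 were lower and 0 higher, against 5.55% and 6.21% of all genes. All 10 fitted values were below 0, as were 48.0% of all genes, with a median of -0.18 against 0.01 over all genes. The α-amyrin library was the lowest of the 3 at both passages for 10 of 10 members, a pattern that 13.9% of all genes showed. With library size alone or FPKM as the scale it held for 9 of 10, a setting added after the data were seen.

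Cnn1 differed most from vehicle, with an α-amyrin to vehicle ratio of 0.735 at P1 and 0.688 at P6 and a fitted log2 difference of -0.49 ± 0.06 (edgeR adjusted p = 0.0745). Actg2 had ratios of 0.813 and 0.691 and a log2 difference of -0.41 ± 0.07 (edgeR adjusted p = 0.134). Acta2 had ratios of 0.828 and 0.761 and a log2 difference of -0.33 ± 0.06 (edgeR adjusted p = 0.130). For all 3 genes the values at both passages lay on the same side of 1. Myh11 had ratios of 0.899 at P1 and 0.675 at P6, the widest gap between passages among the members, and a log2 difference of -0.33 ± 0.10 (edgeR adjusted p = 0.312). Cnn2 lay closest to vehicle, at ratios of 0.992 and 0.977 and a log2 difference of -0.02 ± 0.05 (edgeR adjusted p = 0.907), and its sign turned with library size alone or FPKM as the scale. The remaining members, Tagln, Myl9, Lmod1, Tpm2 and Tpm1, had log2 differences of -0.18, -0.18, -0.13, -0.13 and -0.10.

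Whether the α-amyrin differences passed the test depended on the fit. With the vehicle and α-amyrin libraries alone, 3 members (Acta2, Actg2 and Cnn1) were called lower, beside 1.07% of all genes. DESeq2 called the same 3 (0.625% of all genes), as did edgeR without the P1 β-amyrin library (0.927%) or the P6 β-amyrin library (1.11%), and with no filter on low counts Tagln made 4 (0.815%). These fits called more genes of all kinds, not only members. Over 12 alternatives the edgeR, limma or DESeq2 adjusted p ranged from 1.42e-05 to 0.553 for Cnn1 and from 8.37e-06 to 0.635 for Acta2, and the log2 difference stayed between -0.56 and -0.43 for Cnn1 and between -0.41 and -0.26 for Acta2. The P6 α-amyrin library was the shallowest of the 6, and the P1 α-amyrin library the deepest.

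With β-amyrin the order of libraries was less uniform than with α-amyrin. The β-amyrin library was the highest of the 3 at both passages for 5 of 10 members, a pattern that 13.0% of all genes showed. In the fit 7 members were above vehicle with β-amyrin and 3 below, with a median log2 difference of 0.06. By edgeR 0 were called at an adjusted p below 0.05, against 0.00590% of all genes higher and 0 lower. At an unadjusted p below 0.05 the count was also 0, against 4.86% of all genes higher and 5.39% lower, and DESeq2 called 0. At P1 all 10 β-amyrin values were above vehicle, where 49.7% of all genes were below it, by ratios from 1.01 for Actg2 to 1.19 for Lmod1. At P6, 5 were above and 5 below, against 48.2% of all genes below, and Acta2, Actg2, Cnn1, Myl9 and Myh11 changed side, as 41.1% of all genes did. The largest fitted difference was that of Lmod1, 0.16 ± 0.07 (edgeR adjusted p = 0.503; 95% interval -0.01 to 0.32).

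**Figure D3:**
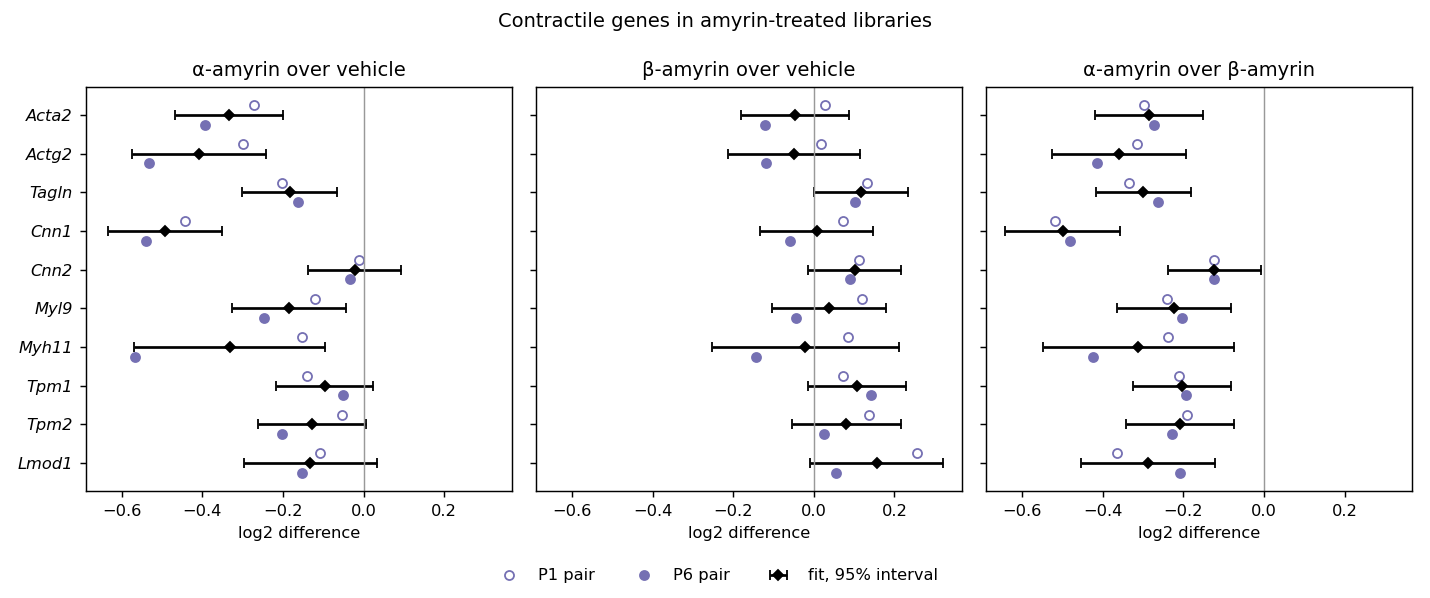
Log2 differences of the 10 contractile genes for α-amyrin over vehicle, β-amyrin over vehicle and α-amyrin over β-amyrin, as fitted values with 95% intervals (black diamonds) and as ratios of single libraries at P1 (open circles) and P6 (filled circles). All points in the left and right panels are below 0, while in the middle panel the P1 circles are above 0 and the P6 circles fall on both sides.

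The 2 isomers form 1 pair of compounds, given at the same dose for the same time. Every contractile gene was lower with α-amyrin than with β-amyrin, in the fit (49.1% of all genes) and in the pair of libraries at P1 (49.3%) and at P6 (49.2%). At an edgeR adjusted p below 0.05, 0 of 10 were called, a call made for 0.0118% of all genes on the lower side and 0.0472% on the higher. At an unadjusted p below 0.05, 10 of 10 were lower and 0 higher, against 4.01% and 5.21% of all genes. The median log2 difference was -0.29, against 0.00 over all genes. The comparisons of each compound with vehicle share their vehicle libraries and, with this one, the same fit.

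The difference between the isomers was widest for Cnn1, at a log2 value of -0.50 ± 0.06 (edgeR adjusted p = 0.0788; 95% interval -0.64 to -0.36), with single-library ratios of 0.698 at P1 and 0.717 at P6. Tagln followed by its p, at -0.30 ± 0.05 (edgeR adjusted p = 0.160; interval -0.42 to -0.18), with ratios of 0.792 and 0.833. Acta2 stood at -0.29 ± 0.06 (edgeR adjusted p = 0.223; interval -0.42 to -0.15), with ratios of 0.813 and 0.828. For these 3 genes the ratio changed little from P1 to P6. Actg2 was at -0.36, Myh11 at -0.31, Lmod1 at -0.29, Myl9 at -0.22, Tpm2 at -0.21, Tpm1 at -0.20 and Cnn2 at -0.12, where the interval ran from -0.24 to -0.01. In DESeq2 4 members (Acta2, Actg2, Tagln and Cnn1) were called lower, beside 0.236% of all genes. Without the P6 β-amyrin library edgeR called 4 (Acta2, Tagln, Cnn1 and Lmod1, beside 0.450% of all genes), without the P1 β-amyrin library 1 (Cnn1, beside 0.190%), and with no filter on low counts 5 (Acta2, Actg2, Tagln, Cnn1 and Tpm1, beside 0.444%). The macrophage marker sums were unequal between the isomers at both passages, 304 CPM with α-amyrin and 43.5 CPM with β-amyrin at P1 and 5379 and 3762 CPM at P6, and their part in these differences was not tested.

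No member was at least 2-fold changed by either compound or between the isomers in any pair of libraries at the same passage. Among all genes, α-amyrin over vehicle reached this size on the lower side for 0.124% at P1 and 0.171% at P6 and on the higher side for 0.206% and 0.0825%. For β-amyrin over vehicle the shares were 0.590% and 0.454% lower and 0.0236% and 0.159% higher, and for α-amyrin over β-amyrin 0.0236% and 0.0884% lower and 0.731% and 0.383% higher. The response to the amyrins was not shown to differ between passages for any member. The passage-by-amyrin term pooled both compounds against vehicle, so a difference between the isomers counted as error. The fitted values of every member differed between the isomers, which weakens this test for them. A count of 0 calls there does not show an equal response at both passages. In the edgeR fit with a passage-by-amyrin term 0 members and 0 genes of all tested passed at an adjusted p below 0.05, and 0 members passed at an unadjusted p below 0.05, against 1.40% of all genes higher and 1.26% lower. With a separate term for each compound, added after the data were seen, 0 members were called for either. For α-amyrin 0 genes of all were called, and for β-amyrin 1.06% of all genes higher and 0.0531% lower, among them all 13 macrophage markers higher. For Myh11 the pooled term was -0.30 (95% interval -0.94 to 0.33), and for Acta2 -0.14 (-0.71 to 0.44), so the intervals leave room for differences larger than the compound effects themselves.

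With passage means subtracted, all pairs of members were positively correlated over the 6 libraries, but not every single step was shared. For β-amyrin over vehicle at P6, 5 members were above and 5 below. The α-amyrin library was the lowest of its passage for all 10 members, and the r values include this order. Over the 6 libraries, the 45 pairs of members had Pearson r of log2 CPM from -0.51 to 1.00, with a median of 0.56 and 33 pairs positive. After the mean of each passage was subtracted, r ran from 0.54 to 0.99, with a median of 0.88 and all 45 positive. These points share 6 libraries and their scaling, and the values are a description. The share of positive r over pairs of other genes was not computed. By Pearson r the genes most like Acta2 among 10777 other protein-coding genes were Bag2 (r = 0.997), Btg3, Ptar1, Ccnt1 and Irak1bp1 over the 6 libraries. Within passages they were Col5a2 (r = 0.9995), a fibrillar collagen chain, then Btg3, U2surp, Crebbp and Edem3. Col5a2 had 3160, 2455 and 3254 CPM at P1 and 4090, 2880 and 3702 CPM at P6 for vehicle, α-amyrin and β-amyrin, so it shared the order of the treatments with Acta2 but was higher, not lower, in each P6 library than in the P1 library of the same treatment.

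The regulators of contractile transcription and of stress fibre assembly comprised 23 genes. In edgeR 12 of 23 were lower at P6 and 6 higher (29.1% and 30.0% of all genes), and the median change was -0.14 (log2). The gene for SRF itself fell, with a value of -0.48 ± 0.06 for Srf (edgeR adjusted p = 3.47e-04), while its cofactor genes Mrtfa and Mrtfb rose by 0.16 and 0.35 (edgeR adjusted p = 0.0487 and 0.00349). Tead1, a partner of the YAP coactivator, fell by 0.56 (SE 0.04, edgeR adjusted p = 4.53e-05). Limk2, a kinase that protects actin filaments from severing, fell by 0.51, and Klf4, a repressor of smooth muscle genes, fell by 0.57. With α-amyrin 0 of 23 were called in edgeR, as with β-amyrin. At an unadjusted p below 0.05, 3 were lower and 2 higher with α-amyrin (5.55% and 6.21% of all genes). With β-amyrin 1 was lower and 3 were higher (5.39% and 4.86%). Klf4 had 107, 141 and 120.3 CPM at P1 and 68.4, 93.9 and 86.8 CPM at P6 for vehicle, α-amyrin and β-amyrin, highest with α-amyrin at both passages. Its log2 difference with α-amyrin was 0.43 ± 0.06 (edgeR adjusted p = 0.0899), and Limk2 stood at -0.28 ± 0.06. With β-amyrin both went the same way, Klf4 at 0.26 ± 0.06 (edgeR adjusted p = 0.318) and Limk2 at -0.20 ± 0.05. Myocd, the smooth muscle cofactor of SRF, was low in every library, at 0.9 to 1.7 CPM.

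Of 13 genes for the phosphorylation of myosin light chain, 3 were lower and 2 higher at P6, both smaller shares than the 29.1% and 30.0% of all genes. Mylk, the kinase that phosphorylates Myl9, had 47.4, 58.6 and 59.5 CPM at P1 and 15.3, 15.1 and 16.1 CPM at P6. Its log2 change of -1.82 ± 0.08 (edgeR adjusted p = 7.75e-06) was close in size to those of Actg2 and Myh11. Ppp1r14b, an inhibitor of the myosin phosphatase, fell by 0.57, and Ppp1r12c, a targeting subunit of that phosphatase, rose by 0.52. With α-amyrin 0 were called by edgeR, and at an unadjusted p below 0.05 there were 0 lower and 1 higher (5.55% and 6.21% of all genes). Calm3, one of the calmodulin genes that activate the kinase, stood at 0.23 ± 0.07 (edgeR adjusted p = 0.312). With β-amyrin 0 were called by edgeR, and 1 was lower and 4 were higher at an unadjusted p below 0.05 (5.39% and 4.86% of all genes).

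Relatives of the members in the same families fell in 9 and rose in 3 of 17 tested genes, against 29.1% and 30.0% of all genes. Actc1, cardiac actin, fell from 203, 216 and 173 reads at P1 to 4, 2 and 0 reads at P6 (edgeR adjusted p = 2.29e-05), too few for a stable fold, and the summed cardiac markers were also lower at P6. Tpm4 fell by 0.71 and Tagln2 by 1.06. The cytoplasmic actins Actb and Actg1 fell by 0.25 and 0.54, and non-muscle myosin Myh10 rose by 0.49. With α-amyrin Actb and Actg1 stood at log2 differences of 0.03 ± 0.06 and 0.00 ± 0.05, so the FPKM ratio of Acta2 to Actb was lowest in the α-amyrin library of each passage: 1.46, 1.20 and 1.34 at P1 and 1.19, 0.887 and 1.09 at P6 for vehicle, α-amyrin and β-amyrin. Acta1, skeletal actin, was at -0.67 ± 0.11 (edgeR adjusted p = 0.114) and Myh9 at -0.25 ± 0.06 (edgeR adjusted p = 0.219) with α-amyrin. With β-amyrin Acta1 stood at -0.34 ± 0.11 (edgeR adjusted p = 0.413). At an unadjusted p below 0.05, 1 gene of the list was lower and 2 were higher with β-amyrin (5.39% and 4.86% of all genes).

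Of 40 stress fibre and focal adhesion genes 24 were lower at P6 and 6 higher (29.1% and 30.0% of all genes), and the median change was -0.20 (log2). Csrp2, a LIM protein of smooth muscle, fell by 2.24 (SE 0.06, edgeR adjusted p = 2.26e-06) and Csrp1 by 0.69, while the adhesion protein gene Parvb rose by 1.95. With α-amyrin 0 were called by edgeR, and 13 were lower and 1 higher at an unadjusted p below 0.05, against the 5.55% and 6.21% of all genes given above. Sorbs2 had the smallest p of the list with α-amyrin and went the other way, at 0.43 ± 0.08 against vehicle (edgeR adjusted p = 0.164). Lpp, a zyxin relative at adhesions, stood at -0.31 ± 0.06 against vehicle (edgeR adjusted p = 0.179) and at -0.35 ± 0.06 against β-amyrin (edgeR adjusted p = 0.174). The α-amyrin library was the lowest at both passages for 21 of the 40 genes, against 13.9% of all genes. With β-amyrin 0 were called by edgeR, and 1 was lower and 6 were higher at an unadjusted p below 0.05 (5.39% and 4.86% of all genes). Sorbs2 was above vehicle there too, at 0.32 ± 0.08.

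The 16 genes known to respond to TGF-β in fibroblasts were split at P6, with 9 lower and 5 higher, the latter close to the 30.0% of all genes and the former above the 29.1%. Fn1, fibronectin, rose by 1.33 on the log2 scale and Itga11, a collagen receptor subunit of myofibroblasts, by 1.27, while Postn, the matrix protein periostin, changed by -1.25. With α-amyrin 9 of 16 were lower and 0 higher at an unadjusted p below 0.05 (5.55% and 6.21% of all genes), and the α-amyrin library was the lowest at both passages for 10 of 16 (13.9% of all genes). In the additive fit, passage-by-compound terms aside, Itga11 was the one gene of all these lists called for a compound. It had 190.05, 111 and 154 CPM at P1 and 451, 288 and 355 CPM at P6 for vehicle, α-amyrin and β-amyrin, and fell with α-amyrin by 0.71 (SE 0.06, edgeR adjusted p = 0.0424). That call was lost in 5 of 12 alternatives (adjusted p from 1.59e-15 to 0.314), among them those without the P1 vehicle, P1 α-amyrin, P6 vehicle or P6 α-amyrin library. Postn was at -0.64 ± 0.08 with α-amyrin (edgeR adjusted p = 0.0745). With β-amyrin both genes were also below vehicle, Itga11 at -0.32 ± 0.06 and Postn at -0.37 ± 0.08 (edgeR adjusted p = 0.215 and 0.262). At an unadjusted p below 0.05, 3 of 16 were lower and 0 higher with β-amyrin (5.39% and 4.86% of all genes).

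**Figure D4:**
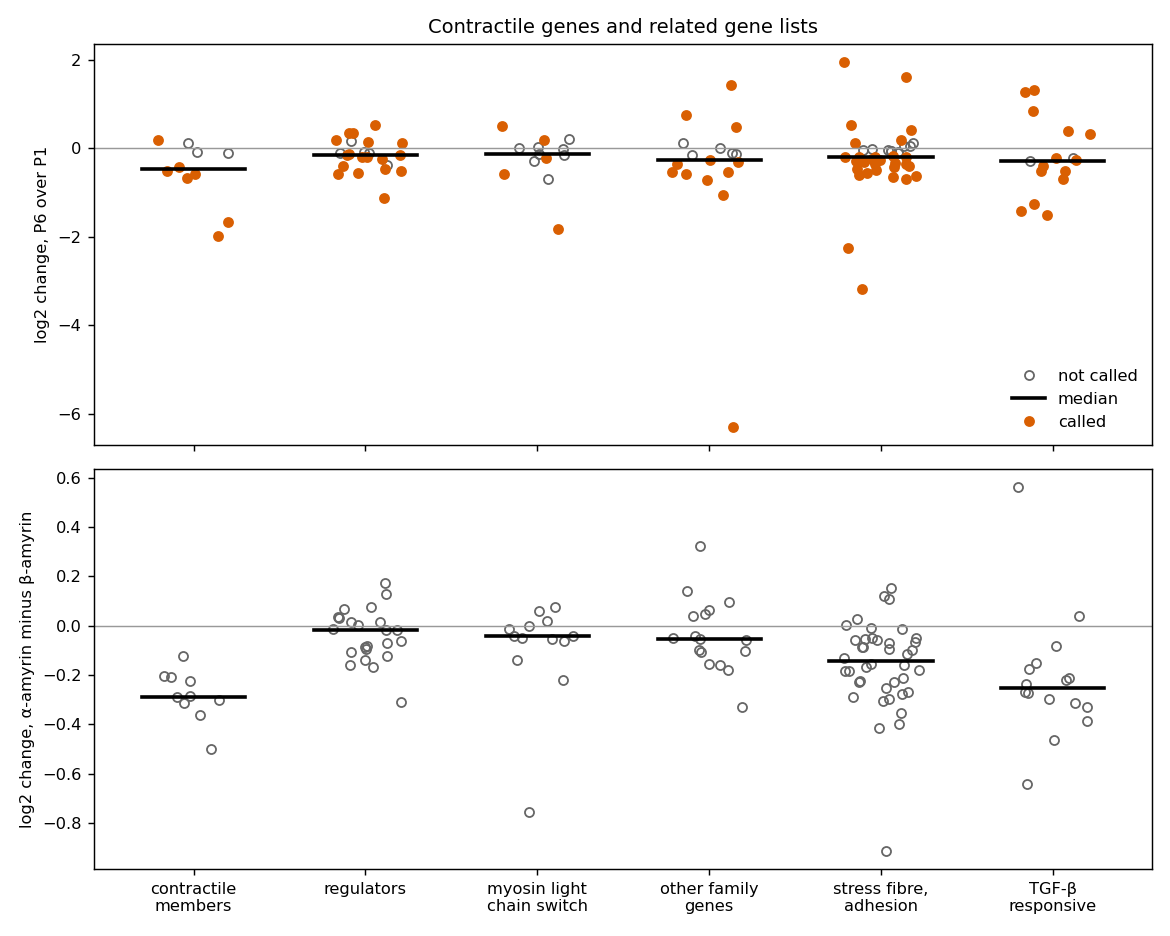
Fitted log2 changes of single genes in the contractile group and in 5 related gene lists, for P6 over P1 (upper panel) and α-amyrin minus β-amyrin (lower panel), with called genes filled, others open, and the median of each list as a bar. The contractile genes have medians of -0.48 and -0.29, and in the lower panel all 10 are below 0 and no gene is called in any list.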

How the data were processed

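The authors deposited unnormalized whole-number read counts per gene and, separately, FPKM values for the same 55487 genes in 6 libraries. A directional kit was used on poly(A) RNA, per the labels' protocols. The submitters' processing notes name the build mm10 and, with no role or order, featureCounts 1.6.3, SAMtools 1.9, HISAT2 2.1.0, Trimmomatic 0.38 and FastQC 0.11.7. Not given in the sources used here are the strand setting of the counting and the method behind the FPKM. Coordinates are those of the deposited tables on mm10 and equal GENCODE M21 for all 10 genes.

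Counts were scaled by TMM and tested with the quasi-likelihood test of edgeR 4.0.16 in R 4.3.3, with passage and treatment as additive terms over all 6 libraries, after filterByExpr with passage as the group. This leaves 2 residual degrees of freedom, so a response that differs between passages counts as error. Calls were made at a Benjamini-Hochberg adjusted p below 0.05 over the 16962 genes tested. Errors are standard errors (SE) derived from the test statistic. Ratios of single libraries used TMM CPM with a prior count of 2, with a change by size at 2-fold and at least 5 CPM in either library. The fit was tested on simulated data. Those data had additive changes and a common spread for all genes, so they could not check departures from additivity. FPKM served for comparisons between genes and for one alternative. Other alternatives were RLE or library-size scaling, no filter, DESeq2 1.42.0, limma 3.58.1 on log2(FPKM + 1), each library left out, no treatment term, and only the libraries of the groups compared.

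Total counts ran from 18798418 to 28752332 per library. The members and the lists were chosen with earlier results of these data known. All 10 members are named between passages, for α-amyrin against vehicle and for α-amyrin against β-amyrin. For β-amyrin against vehicle and for the passage-by-amyrin term only some members are named. From each list, up to 3 genes with the smallest adjusted p between passages and up to 2 per compound comparison were named by rule. Other list genes (Srf, Mrtfa, Mrtfb, Myocd, Actb, Actg1, Myh10 and, between passages, Myh9) were named for their role, after their values were seen.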

Additional observations from a re-analysis of the deposited data

How the results depend on the processing

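The direction of each member between passages, and of α-amyrin minus β-amyrin, held in all alternatives run, and the count of 6 members lower at P6 did not move. The single higher call, Lmod1, fell to 0 with no treatment term (edgeR adjusted p = 0.122 for Lmod1), and leaving out each library in turn gave 0 to 1. The 0 members called lower with α-amyrin became 4 with no filter on low counts, 3 with DESeq2 and 3 with the vehicle and α-amyrin libraries only, and 0 to 3 with a library left out. All genes called lower with α-amyrin rose as well, from 0.0177% to 0.815%, 0.625% and 1.07% in these settings. For α-amyrin minus β-amyrin the count of 0 became 5 with no filter, 4 with DESeq2 (0.444% and 0.236% of all genes, from 0.0118%), and 0 to 4 with a library left out. Cnn2 with α-amyrin turned to 0.00 on the log2 scale with library size only and with limma on FPKM (0.0036 and 0.0044). With β-amyrin, where no member was called, the log2 difference took both signs when a library was left out, from -0.062 to 0.067 for Cnn1, from -0.047 to 0.11 for Myl9, from -0.13 to 0.023 for Acta2, from -0.16 to 0.043 for Actg2 and from -0.20 to 0.13 for Myh11. In each case the lowest value came without P1 vehicle and the highest without P6 vehicle. Cnn1 with β-amyrin also turned with library size only (-0.00039) and with limma on FPKM (-0.027). Where a library was left out, the lone library of a condition is assumed to vary like the others. The cause of these shifts was not tested. The passage-by-compound terms for each amyrin alone, and the order of libraries on other scales, were added after seeing the data. No paired analysis was possible because the labels give no replicate numbers to pair by, beyond the treatment term, which already sets P6 against P1 within each treatment.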
